A study of Lens culinaris with 18 samples.

Results

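Root was compared with leaf in unstressed lentil seedlings (Lens culinaris, cultivar Sultan, wild type) at 24 h of hydroponic culture. The comparison held 4 of the 16 root and leaf libraries analysed here, 2 biological replicates of each tissue. Seedlings were 7 days old when moved to aerated Hoagland's solution, in which these controls stayed without polyethylene glycol. The other 12 libraries were root and leaf at 24 h with 15% polyethylene glycol 6000 (PEG), at 96 h without it and at 96 h with it. A transcript was described if its value was at least 1 in at least 2 of the 4 control libraries, which 24466 of 124151 met. A pair of transcripts, TRINITY_DN47470_c0_g1 and TRINITY_DN47470_c0_g2, was left out of every count, because it made up most of 1 of the 4 libraries. Identifiers are gene-level components of a Trinity assembly and the file gives them no gene names. The tissue labels therefore could not be checked against marker genes, and only a few transcripts are named.

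Leaf and root divide the work of a seedling. Leaf cells carry out photosynthesis, and a small number of very abundant messages, such as those of the small subunit of Rubisco and of chlorophyll-binding proteins, is a known feature of green tissue. Root cells take up water and ions, have no green plastids and are the first tissue to meet a dry medium. None of the transcripts below is identified as one of those genes.

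The values are TPM, which counts reads per transcript length, multiplied by 1 factor per library. Without the pair, the values of root replicates 1 and 2 summed to 514963 and 440547, and those of leaf replicates 1 and 2 to 943350 and 847440. Read depth was unknown. TRINITY_DN47470_c0_g1 was at 106257 and 3720265 in root replicates 1 and 2 and at 74.3 and 62.9 in leaf replicates 1 and 2. With TRINITY_DN47470_c0_g2 it took 23.3% of the root replicate 1 total, 92.4% of the root replicate 2 total and at most 0.0108% of either leaf total. Among the other transcripts, 24349 were above 0 in root replicate 2, and 45577 to 47104 in the remaining 3 libraries. The smallest value above 0 was 0.0580 in root replicate 2 and 0.00700 to 0.00900 in the others, so low transcripts were resolved least well in root replicate 2.

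With values as deposited, more transcripts were higher in leaf than in root, and under 1 of 3 other scalings fewer were. Of 24466 tested, 7719 were higher in leaf and 5316 higher in root (limma, adjusted p under 0.05), 31.5% and 21.7% of those tested. At least 2-fold differences were found for 6221 (25.4%) in favour of leaf and 4197 (17.2%) in favour of root. At 4-fold the counts were 2955 (12.1%) and 1773 (7.25%), and at 16-fold 690 (2.82%) and 220 (0.899%). Differences are between means of log2(value + 1), a scale on which low transcripts appear to differ less than they do. The median difference over all tested, root minus leaf, was −0.26 log2 units. In these bulk samples, fewer cells of a type and less RNA per cell cannot be told apart.

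**Figure D1:**
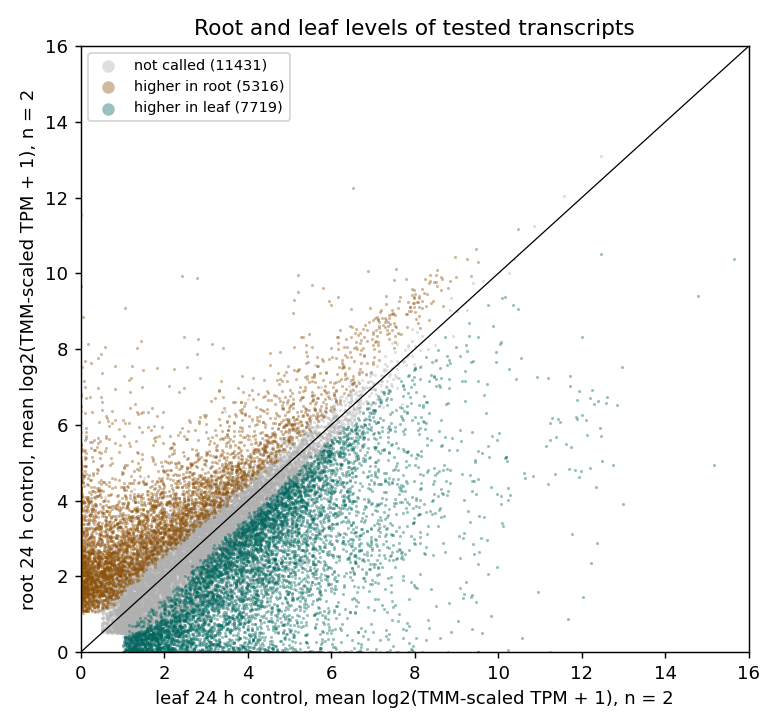
Mean level of each of 24466 tested transcripts in the 24 h controls, leaf on the x axis and root on the y axis, as log2(TMM-scaled TPM + 1) with n = 2 per tissue. Each point is 1 transcript, the line marks equal levels, and the 7719 transcripts called higher in leaf reach higher levels than the 5316 called higher in root.

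These counts rest on a spread shared by all 16 libraries. The root controls differed more between replicates than that, by 0.61 log2 units in the median of the tested transcripts, sign ignored, against 0.13 between the leaf controls. In a fit that weighted groups by their spread, the root controls had the lowest weight of the 8 groups, 0.120, and the leaf controls had 2.24. With spread from the 4 compared libraries alone, 4910 transcripts (20.1%) were higher in leaf and 2975 (12.2%) higher in root. Of those higher in leaf in that fit, 4785 were also called with all libraries, and 2924 of those higher in root were. With 1 weight per group the counts were 5156 and 3140. The majority in leaf depended on the scaling: it held 59.2% of calls as deposited, 55.6% with quantile normalization, 52.9% with median-ratio size factors and 31.7% when libraries were scaled to the same total without the pair. The last scaling moved the median difference to 0.47.

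**Figure D2:**
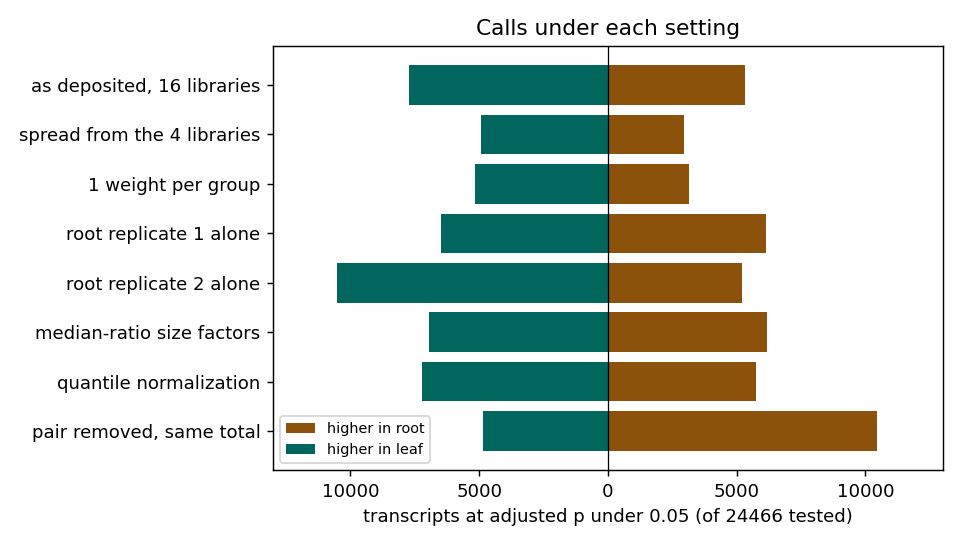
Number of transcripts called higher in leaf (bars to the left) and higher in root (bars to the right) of 24466 tested, under each scaling, estimate of spread or choice of root library. Leaf bars range from 4846 to 10535 and root bars from 2975 to 10452, and root exceeds leaf in the scaling to the same total without the pair.

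A core of calls passed under most of these choices. The fit with 1 weight per group was not part of the rule. Under all 4 scalings, with spread from the 4 libraries, and with each root replicate alone set against leaf, leaf was higher for 4073 transcripts (16.6%) and root for 2756 (11.3%). Of these, 2599 and 1298 differed at least 4-fold. This rule was chosen after the data were seen. The step over the 4 scalings, taken alone, kept 91.2% of root calls and 62.0% of leaf calls. The median level of the core transcripts in the tissue where they were higher was 16.6 in leaf and 11.2 in root.

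With values as deposited, transcripts called the same way were spread over all levels, but most of the most abundant were higher in leaf. Of 62 transcripts with a mean of at least 1000 over the 4 libraries, 52 were higher in leaf (83.9%) and 5 in root (8.06%), and their median difference was −5.70. A transcript could enter this class through its level in 1 tissue alone, so part of that difference follows from the choice. The classes were not counted under the other scalings. Between 100 and 1000, 395 of 795 were higher in leaf and 265 in root. Between 10 and 100, 3236 of 8144 were higher in leaf and 1484 in root. Below 10 the directions came closest, with 4036 of 15465 higher in leaf and 3562 in root. The filter bears on this last class, since 2525 transcripts passed through both leaf libraries alone and 2406 through both root libraries alone, and such transcripts had to differ. A value of at least 1 was found in all 4 libraries for 14968. At the limit itself, 2466 tested transcripts had a second-highest value from 1 to 1.5, and 4899 left out had one from 0.5 up to 0.993.

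With the pair left out, the leaf profile was concentrated in few transcripts and the root profile less so. With the pair counted this does not hold, since it alone took 23.3% and 92.4% of the root totals. Without the pair, the 10 most abundant transcripts held 19.6% and 18.4% of the leaf totals and 6.19% and 10.2% of the root totals. The 100 most abundant held 45.9% and 41.4% in leaf and 21.2% and 22.8% in root, so the tissues did not overlap. Values of at least 1000 were reached by 89 and 82 transcripts in the leaf libraries and by 32 and 17 in the root libraries. With 2 libraries per tissue an exact permutation test cannot go below 0.33, so these shares carry no p. The shares are ratios within a library and do not depend on the factor per library, but the counts at 1000 or more do.

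The 100 transcripts with the highest mean in each tissue, taken from those tested, had 14 members in common. The leaf set lay at 846 or more in leaf, with a median of 2417 there and 51.8 in root. It made up 45.9% and 41.4% of the leaf totals and 6.01% and 8.06% of the root totals, and 15 of its members were under 10 in root. The root set lay at 499 or more in root, with a median of 696 there and 274 in leaf. Its share of the root totals was 21.1% and 22.6%, and of the leaf totals 15.3% and 14.0%, so most of its members were also abundant in leaf, and 5 were under 10 there. Being chosen by level in 1 tissue, these sets differ in that direction by construction, and their calls are given only as counts. Of the leaf set 94 were higher in leaf (92 with spread from the 4 libraries). Of the root set 81 were higher in root (58 with that spread) and 8 higher in leaf. Among the 14 in common, 8 were higher in leaf, 1 in root and 5 not called, and for 3 the 95% interval of the difference stayed within 1 log2 unit either way.

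On the log2(value + 1) scale and with values as deposited, a difference within 1 unit could be shown for a minority. The 95% interval of the difference lay within 1 log2 unit either way for 4983 transcripts, 20.4% of those tested, and for 2577 (10.5%) with spread from the 4 libraries. The interval had a median width of 1.31 log2 units in the first fit and 1.85 in the second. On this scale low transcripts fall within 1 unit more easily, and 15465 of those tested had a mean below 10. These intervals were not adjusted for the number of transcripts tested and were not taken under the other scalings. The 11431 transcripts not called (46.7%) are therefore not shown to be alike in root and leaf.

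The root replicates were taken one at a time against the same leaf libraries. Root replicate 1 alone gave nearly equal numbers, 6494 transcripts (26.5%) higher in leaf and 6133 (25.1%) higher in root, with a median difference of 0.02. Root replicate 2 alone gave 10535 (43.1%) higher in leaf and 5214 (21.3%) higher in root, with a median of −0.53. Each fit takes the lone root library to vary like the other groups, and the leaf libraries are common to both. Leaf held 51.4% of the calls with replicate 1, and 66.9% with replicate 2, in which the pair took 92.4%. The part of the pair in that difference was not tested.

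**Figure D3:**
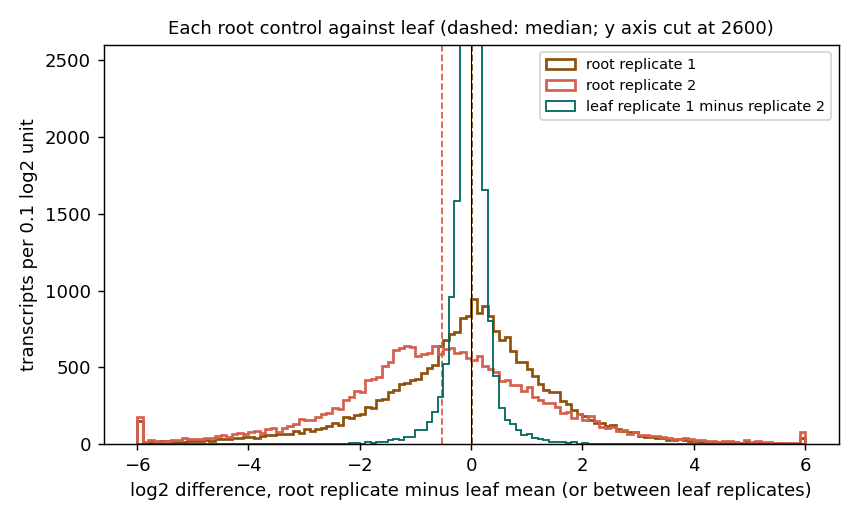
Distribution of the log2 difference from the leaf mean for root control replicate 1 and replicate 2, with dashed medians at 0.02 and −0.53, beside the difference between the leaf replicates. The y axis counts transcripts per bin of 0.1 log2 units and is cut below the tallest bins of the leaf curve, and the outermost bins hold all values beyond 6 log2 units either way.

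The offset between the root replicates was present at most levels. Replicate 1 lay above replicate 2 by a median of 0.38 log2 units below a mean of 10, 0.39 between 10 and 100 and 0.43 between 100 and 1000. For the 62 transcripts at 1000 or more it was −0.10. In leaf the same medians were 0.00 to 0.15. Over the tested transcripts the root offset was 0.38. It fell to 0.22 when totals were made equal without the pair, and to 0.05 under median-ratio scaling. Zeros were as uneven. Among tested transcripts, 3998 were listed at 0 in root replicate 2 and above 0 in replicate 1, and 170 the other way round, against 253 and 294 in leaf. A difference of at least 4-fold between replicates was found for 40 transcripts in leaf. In root, 1469 were that much higher in replicate 1 and 632 in replicate 2.

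The order of the 4 libraries shows the same. Both root libraries lay above both leaf libraries for 7380 transcripts (30.2%) and below both for 10259 (41.9%). In the remaining 6827 the tissues overlapped. For 3565 of these root replicate 1 was above both leaf libraries and replicate 2 below both, and for 816 the reverse held. Few of these crossings were large: 129 and 45 were at least 2-fold on either side. Of the transcripts called, 1 in each direction had overlapping libraries. Among the transcripts without overlap, 2406 passed the filter through both root libraries alone and 2525 through both leaf libraries alone. Their order was fixed by the filter.

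Differences built from separate libraries were alike in pattern. The difference of root replicate 1 from leaf replicate 1 and that of root replicate 2 from leaf replicate 2 share no library. Across the 24466 transcripts, which are not independent replicates, their Pearson correlation was 0.815 and their Spearman correlation 0.772. With the leaf libraries exchanged r was 0.814. The filter used these same libraries and can raise such correlations. It admitted 2406 transcripts through both root libraries alone and 2525 through both leaf libraries alone. Those had to differ in the same direction in both pairs of libraries. The differences had an SD of 1.69 and 1.91 log2 units. By Spearman rho over the same transcripts, the root replicates had 0.795 with each other and the leaf replicates 0.979. Root replicate 1 had 0.579 and 0.583 with the leaf controls and 0.815 to 0.877 with the 6 other root libraries. Root replicate 2 had 0.461 and 0.468 with the leaf controls and 0.682 to 0.745 with those root libraries. Both were therefore closer to each root library than to any leaf library, where the highest values were 0.631 and 0.513.

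By a rule on the size of the difference, its stability with either root replicate and a value above 0 in all 4 libraries, 2 transcripts were named in each direction. Of those that qualified, 1754 were higher in root and 3063 in leaf.

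TRINITY_DN46418_c0_g3 was at 0.282 and 1.63 in the root controls and at 3343 and 3175 in the leaf controls. The root minus leaf difference was −10.79 log2 units (SE 0.34, limma adjusted p = 2.52e-09, and 0.00292 with spread from the 4 libraries). The leaf libraries lay within 1 narrow range and far above both root libraries. In the other conditions its level in leaf was lower, at 1725 and 1381 in the 96 h controls, 689.7 and 458 at 24 h of PEG and 315 and 285 at 96 h of PEG. It reached at most 2.15 in any root library, so the tissues stayed apart in all 16.

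TRINITY_DN49244_c4_g1 was at 2.13 and 1.40 in the root controls and at 4121 and 4251 in the leaf controls. The difference was −10.58 (SE 0.27, limma adjusted p = 9.44e-10, and 0.00261 with spread from the 4 libraries). It was the 27th most abundant tested transcript in leaf. Its leaf level was 1598 and 1336 in the 96 h controls and 108 and 108 at 96 h of PEG, where root was at 16.1 and 17.1. The difference there was −2.63. In root at 24 h of PEG it was listed at 0 in both libraries.

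TRINITY_DN42121_c0_g1 was at 651 and 326 in the root controls and at 0.0470 and 0.0420 in the leaf controls. The difference was 8.79 (SE 0.36, limma adjusted p = 1.30e-08, and 0.00356 with spread from the 4 libraries). The root replicates differed 2-fold, and both were far above leaf. Root levels were lower at 96 h without PEG, at 32.6 and 35.4, and at 24 h of PEG, at 73.6 and 32.9. At 96 h of PEG they were 584 and 613, within the range of the 24 h controls. Leaf reached 2.59 at most.

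TRINITY_DN26205_c0_g1 was at 704 and 410.0 in the root controls and at 1.95 and 0.466 in the leaf controls. The difference was 8.01 (SE 1.10, limma adjusted p = 1.18e-04, and 0.00523 with spread from the 4 libraries). In the other root libraries it ran from 226 to 1384. One leaf library, replicate 1 at 96 h of PEG, held it at 25.3, and the other replicate listed it at 0.

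**Figure D4:**
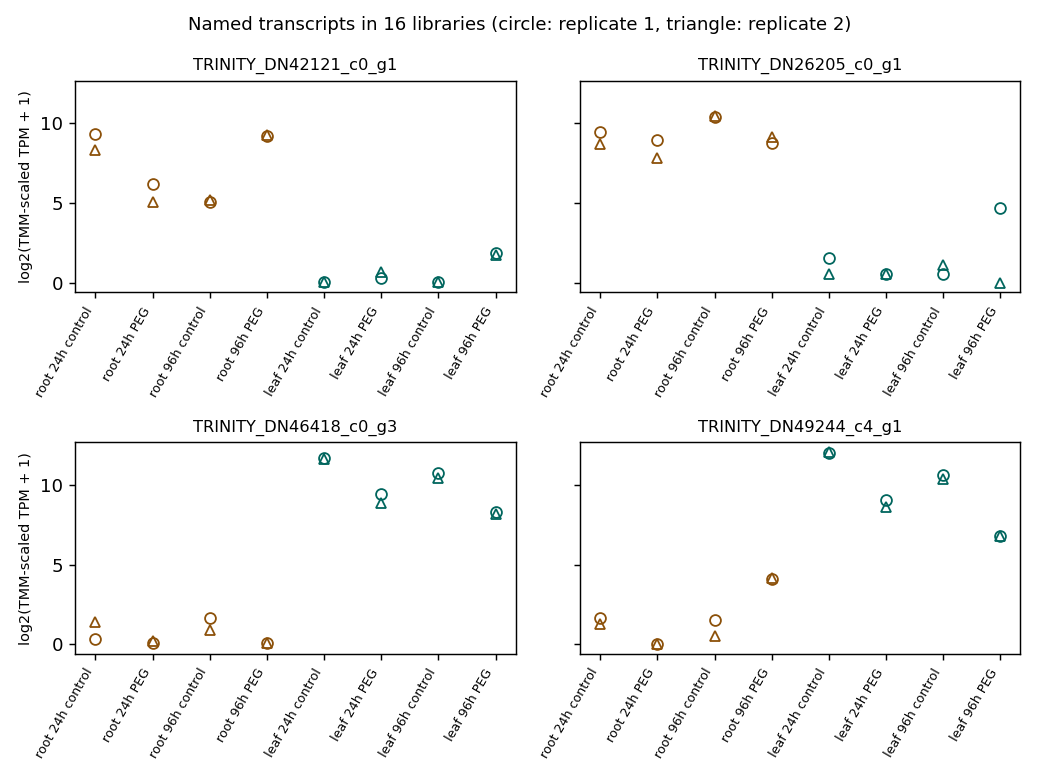
Level of the 4 named transcripts in each of the 16 libraries, as log2(TMM-scaled TPM + 1), with 1 point per library, circles for replicate 1 and triangles for replicate 2. In each panel all root libraries lie on one side of all leaf libraries, and the gap is narrowest for TRINITY_DN49244_c4_g1 at 96 h of PEG.

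Transcripts present in 1 tissue and nearly absent from the other were fewer. At 10 or more in both leaf controls and under 0.5 in both root controls were 271 transcripts, with a median leaf level of 23.0 and a highest of 2424. The reverse held for 147, with a median root level of 25.5 and a highest of 6835. All 147 and 270 of the 271 were called, as their choice implies. In root, 139 of the 271 were listed at 0 in both libraries. A further 130 were listed at 0 in replicate 2 and above 0 in replicate 1, and 0 the other way round. In leaf, 40 of the 147 were listed at 0 in both. These limits follow the scaling: with totals equal without the pair 207 were found for leaf and 258 for root.

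The same limits were then applied to the other 12 libraries. What share of all tested transcripts met them there was not counted, so the counts below are a description only. Of the 271, 152 stayed under 0.5 in the other 6 root libraries, 37 stayed at 10 or more in the other 6 leaf libraries, and 19 did both. Of the 147, 60 stayed under 0.5 in the other 6 leaf libraries, 25 at 10 or more in the other 6 root libraries, and 7 did both. At these limits, low level in the opposite tissue was kept by more transcripts than high level in the own tissue. The limits were not equally strict, so this is no comparison of the transcripts themselves. Median levels in the own tissue were 23.0 in leaf and 25.5 in root, not far above 10. In the opposite tissue, 139 of the 271 and 40 of the 147 were listed at 0 in both controls. The fixed limits do not mean the same in each library. In the leaf libraries at 96 h of PEG the pair took 81.1% and 76.3% of the total.

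The calls of the 24 h controls were followed in conditions whose group means come from other libraries. The spread of each transcript is common to all 16 libraries, so these calls are not independent of those at 24 h, and transcripts of low spread can pass more easily in each. In the 96 h controls, root was higher for 18.6% of all tested transcripts and leaf for 19.3%. Of the 5316 called higher in root at 24 h, 2854 (53.7%) were higher in root again and 96 (1.81%) higher in leaf. Of the 7719 called higher in leaf, 3880 (50.3%) were higher in leaf again and 284 (3.68%) higher in root. The median difference went from 1.58 to 0.88 for the first set and from −1.65 to −0.80 for the second. The sets were chosen on their 24 h values, so the 24 h medians follow from that choice. Of the core transcripts, 1864 of 2756 (67.6%) were higher in root again and 2797 of 4073 (68.7%) higher in leaf again.

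At 24 h of PEG the shares were close to these. Here root was higher for 20.6% of all tested and leaf for 23.0%. Of the 5316, 3033 (57.1%) were higher in root and 114 (2.14%) in leaf, with a median of 0.96. Of the 7719, 4198 (54.4%) were higher in leaf and 295 (3.82%) in root, with a median of −0.91.

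At 96 h of PEG the directions parted. Over all tested transcripts root was higher for 45.0% and leaf for 15.9%, with a median difference of 0.67. Of the 5316, 3732 (70.2%) were higher in root and 266 (5.00%) in leaf. Of the 7719, 2572 (33.3%) were higher in leaf and 1838 (23.8%) in root, and their median was 0.00. Of the 4073 core transcripts of leaf, 1768 (43.4%) were higher in leaf and 527 (12.9%) in root, against 2813 (69.1%) and 77 (1.89%) at 24 h of PEG. Of the 2756 core transcripts of root, 2146 (77.9%) were higher in root and 111 (4.03%) in leaf, against 1963 (71.2%) and 40 (1.45%) at 24 h of PEG. The leaf libraries of this condition are those in which the pair took 81.1% and 76.3%, and its part in these values was not tested. In all 4 conditions together, 1775 of the 5316 (33.4%) were higher in root each time and 1541 of the 7719 (20.0%) higher in leaf each time. The matching share over all tested transcripts was not counted. Both figures include 96 h of PEG, where 45.0% of all tested were higher in root and 15.9% in leaf. They are therefore no measure of which tissue's differences were more constant.

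**Figure D5:**
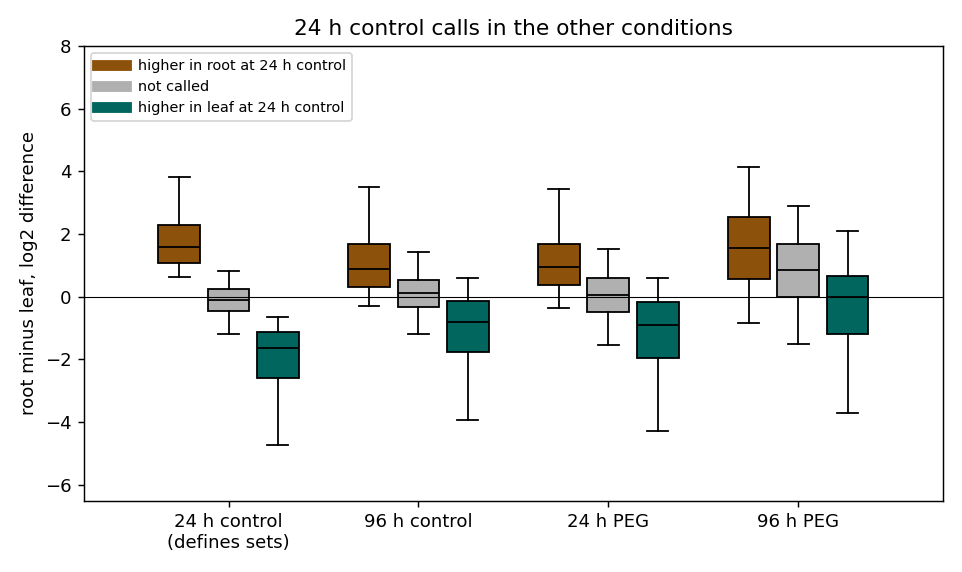
Root minus leaf log2 difference in each condition, for transcripts called higher in root (5316), not called (11431) or called higher in leaf (7719) in the 24 h controls. Boxes span the quartiles with the median as a line and whiskers the 5th to 95th percentile, and in the other conditions the sets keep their order while the leaf set has its median at 0.00 at 96 h of PEG.

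The difference between the tissues was tested for change between the 24 h and 96 h controls. It was higher at 96 h, so towards root, for 3345 transcripts (13.7%) and lower for 1593 (6.51%) (limma interaction, adjusted p under 0.05). The 24 h calls use the same 24 h libraries as this test, with opposite sign, so the next counts lean that way through the selection and are a description only. Of the 3345, 2550 (76.2%) had been called higher in leaf at 24 h. Over the 3345, the median 96 h minus 24 h difference was 0.74 log2 units in root and −0.84 in leaf. Of the 1593, 1178 had been called higher in root at 24 h, and the same medians were −1.21 in root and 0.33 in leaf. The share of changes towards root was 67.7% with the deposited scaling and 61.5% under median-ratio scaling. It was 57.0% with quantile normalization and 42.6% with totals equal without the pair. It was 57.0% of 5743 without root control replicate 2 and 74.3% of 10451 without replicate 1. Leaving out 1 of the 4 96 h control libraries gave 2969 to 3223 changes. Leaving out leaf 24 h control replicate 1 or 2 gave 3090 or 3255. TRINITY_DN42121_c0_g1 was among the transcripts that changed (−3.71, limma adjusted p = 5.84e-04), and for the other named transcripts the change did not pass (limma adjusted p from 0.0543 to 0.535). The call reversed from root at 24 h to leaf at 96 h for 96 transcripts and from leaf to root for 284.

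Where 2 or more related transcripts were called, most sets had calls in 1 direction and some had both. The assembler gives a common component number to transcripts whose reads share sequence, and whether these are gene copies, alleles or pieces of 1 gene is not given in the files. The tested transcripts came from 19779 components, of which 3447 held 2 or more, with 8134 transcripts between them. In those, 30.3% of transcripts were higher in leaf and 17.1% in root. Of 1201 components with at least 2 calls, 631 had all calls towards leaf, 303 all towards root and 267 (22.2%) calls in both directions. How many sets of unrelated transcripts would hold both directions was not worked out, so these counts are a description only. With spread from the 4 libraries 97 had calls in both directions, and without root control replicate 1 there were 473. Without leaf control replicate 1 or 2 there were 158 or 165. At a 4-fold minimum, 339 components had at least 2 calls and 35 had them in both directions. Both a root and a leaf member were called in the same direction again in the 96 h controls in 67 of the 267 components, and in 15 of the 35. Of all 24 h calls, 53.7% of those higher in root and 50.3% of those higher in leaf were called the same way again. Among the core calls, 75 of 491 components held both directions. How the authors' counting shared reads between such similar sequences is not given in the sources used here, so the split within a component is uncertain.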

How the data were processed

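Polyadenylated RNA was made into strand-marked, paired-end libraries, per the labels' protocols. The authors deposited 1 signal per transcript and library, labelled as TMM-scaled; these are TPM multiplied by 1 factor per library. Per the submitters' processing notes, the tools included RSEM, edgeR, Trimmomatic 0.35 and FastQC 0.11.5, without their roles. For the assembler's version, the aligner and any filters, nothing is given. TPM keep no depth, so no counting intervals are given. The 2 stem samples were not analysed here.

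A linear model with a mean for each of 8 groups was fitted to log2(value + 1) of 16 libraries (limma 3.58.1, R 4.3.3), with robust, trended eBayes variances. Adjustment was by Benjamini-Hochberg, with calls under 0.05. With 1 library left out or another scaling, the same 24466 transcripts were tested. On simulated data in which groups had the same spread, known changes were recovered; where each group kept its own spread, the fit of 16 libraries called unchanged transcripts too often, and the fits on the 4 libraries or with group weights did not. Counts from these fits therefore stand beside the main ones. The simulation gave each group 1 spread for all transcripts, with no offset and no uneven zeros between the root replicates. It therefore cannot show that those fits are free of excess calls in these data.

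Transcripts named were the 2 largest differences in each direction, among those called with either root control replicate left out, averaging 10 or more in the tissue where they were higher, above 0 in all 4 libraries and without overlap. Members, tests and rules were chosen with earlier results of these data known. The labels call the replicates biological. Each p-value reflects only how far these samples spread. Alternatives were pseudocounts of 0.1 and 0.5, other filters, 3 scalings, other estimates of spread, a replicate block and each library left out.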

Additional observations from a re-analysis of the deposited data

Results flagged for a closer look

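The difference between root and leaf was called as changed between the 24 h and the 96 h controls for 4938 transcripts, by a direct test of the change (limma interaction, adjusted p under 0.05). TRINITY_DN42121_c0_g1 was one of them. Its root minus leaf difference was lower at 96 h by −3.71 log2 units (limma adjusted p = 5.84e-04), from 8.79 to 5.08. The count of 4938 rests on a spread shared by all 16 libraries, which the root 24 h controls exceeded, and was 3737 with group weights. Its direction followed the scaling. The share of changes towards root was 67.7% as deposited and 42.6% with totals equal without the pair.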

How the results depend on the processing

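Transcripts higher in root numbered 5316, and 3030 with a minimum value of 5, 2975 with spread from the compared groups alone, 3140 with group weights and 10452 with the pair removed and totals equal. Those higher in leaf numbered 7719, and 4910 with spread from the compared groups alone and 4846 with the pair removed and totals equal. The median difference, −0.26, was 0.47 under that last scaling. Beyond the smaller number of transcripts tested with a minimum of 5 (14742), the cause was not tested. The 4938 changes between 24 h and 96 h controls numbered 3261 with a minimum of 5 and 8616 without the 3 libraries dominated by the pair, an alternative chosen after seeing the data. With 1 library left out they ranged from 2969 to 10451. Every other alternative left these 3 counts within 1.5 times. Without both leaf libraries at 96 h of PEG, also chosen after seeing the data, 5977 and 8525 were higher in root and leaf. The 2854 transcripts higher in root at both times were 6052 of 10452 with the pair removed and 4827 of 7590 without the 3 libraries. Components with both directions, 267, were 142 with a minimum of 5 and 97 with group weights. The 4 named transcripts kept direction and call under all 28 alternatives (limma adjusted p from 3.18e-10 to 0.00523). They were chosen for the largest differences and for calls with either root control replicate left out, so this was largely fixed by their choice.

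With replicate number as a replicate block, 5236 and 7637 transcripts were higher in root and leaf and 4710 changed with time. Same-numbered root and leaf controls did not deviate together (r = 0.018 across transcripts). With 2 replicates per tissue, this cannot show whether same-numbered samples came from the same plants or batch. Read depth is unknown, and low values were resolved least well in root control replicate 2.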
